A study of Mus musculus with 6 samples.

Results

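The tumour suppressor p53, encoded by Trp53, and 9 genes known as its targets or partners were followed in sorted mouse germinal centre B cells. The 10 genes were chosen by name (Trp53, Mdm2, Ccng1, Zmat3, Rrm2b, Sesn2, Trp53inp1, Aen, Phlda3 and Eda2r) and are 10 of the 55401 genes listed in each count table. Each symbol matched 1 gene identifier. The cells came from spleens of C57BL/6 mice labelled WT, which had been injected intraperitoneally with sheep red blood cells, an antigen that drives germinal centres through T cell help, and boosted 5 days later. On day 12 the mice were killed and the cells were sorted into a DN and a DP subset, named as in the labels, each with 3 libraries, and all 6 carry 1 batch label. Both subsets share genotype, strain, antigen and tissue. Neither the sort markers behind DN and DP nor the age of the mice are named in the labels. Each of 3 mice is said to have given both subsets, yet which mouse a library came from is not labelled. The p-values therefore measure only how far these libraries spread, and that spread may be technical.

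p53 is a transcription factor that is kept scarce by the ubiquitin ligase MDM2, itself the product of a p53 target gene, which closes a negative feedback loop. DNA damage or a failing ribosome assembly line frees p53 from MDM2, and p53 then switches on genes of cell cycle arrest, DNA repair, metabolic restraint and death. Germinal centre B cells divide fast while their antibody genes are being mutated, and the repressor BCL6 is known to hold down Trp53 transcription in them. Messenger RNA of p53 does not report the amount or activity of the protein, most of whose regulation lies after translation.

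Gene counts per library ran from 8904415 to 11897360 in DN and from 17509384 to 20538024 in DP. Levels below are counts scaled to a common library size (CPM, with library sizes adjusted for composition). A floor of 3 counts, which covers counting error only, is 0.236 to 0.315 CPM in DN libraries and 0.155 to 0.183 CPM in DP libraries. Each change is given as log2 of DP over DN ± its standard error, from edgeR's quasi-likelihood test across 11296 genes, and a gene is called at an adjusted p under 0.05. The germinal centre markers Gcsam and Mki67 were abundant in every library and lower in DP, with 631 ± 9.60 and 7193 ± 445 CPM in DN and 171 ± 2.88 and 4942 ± 325 CPM in DP (SD, n = 3). All 10 listed germinal centre markers were lower in DP (median change -1.25, sums of 10599 to 11386 CPM in DN and 5648 to 6290 CPM in DP). B cell state markers differed as well. All 6 general B cell markers were lower in DP (sums of 2831 to 2877 CPM in DN and 1747 to 1784 CPM in DP). The lists are not separate: Cd79a is in both, and Bcl6 and Fas of the germinal centre list return in the p53 lists below. Over all tested genes, 75.9% were called, 38.3% higher and 37.6% lower. The marker counts of this paragraph are to be read against these shares. Of 6 naive markers 5 were tested, of which 4 were lower and 1 higher (median change -1.20, sums of 361 to 379 and 211 to 222 CPM). Of 6 plasma cell markers 5 were tested, and Irf4, Sdc1, Prdm1 and Xbp1 were higher while Jchain was lower (median change 1.47, sums of 400 to 410 and 365 to 376 CPM). Markers of cells other than B cells also differed between the subsets. Of 8 erythroid markers 6 were tested and all 6 were lower in DP, with sums of 62.1 to 72.5 CPM in DN and 15.9 to 18.3 CPM in DP. Of 7 macrophage markers 6 were tested and all 6 were lower, with sums of 22.7 to 25.3 and 8.90 to 10.6 CPM. Sums of 7 T cell markers were 49.9 to 58.4 and 57.7 to 60.3 CPM, nearly all of it Lck, while Cd3e, Cd3d and Cd3g stayed below 1 CPM on average in both subsets. The part of these B cell states and other cells in the results below was not tested. In such sorted bulk RNA, fewer cells of a kind and less RNA per cell cannot be told apart.

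Of the 10 genes, 8 passed the filter on low counts, and Phlda3 and Eda2r did not. Trp53, Aen and Zmat3 rose in DP, while Trp53inp1, Rrm2b, Mdm2 and Ccng1 fell and Sesn2 was not called. The 7 called of 8 tested stand against 75.9% called among all tested genes, so the number of changed genes is nothing particular to this list. The same holds for overlap: for 7 of the 8 all DP libraries lay above or below all DN libraries, against 77.0% of all tested genes. By direction 3 rose and 4 fell, against 38.3% higher and 37.6% lower among all tested genes. Against a minimum fold of 1.5, Trp53, Aen, Trp53inp1 and Rrm2b were called, 4 of 8, where 34.3% of all tested genes were. The median change of the 8 was 0.037, beside 0.0061 over all tested genes, and with library totals alone these were -0.16 and -0.19. The genes therefore split, and the values of each are given by role.

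**Figure D1:**
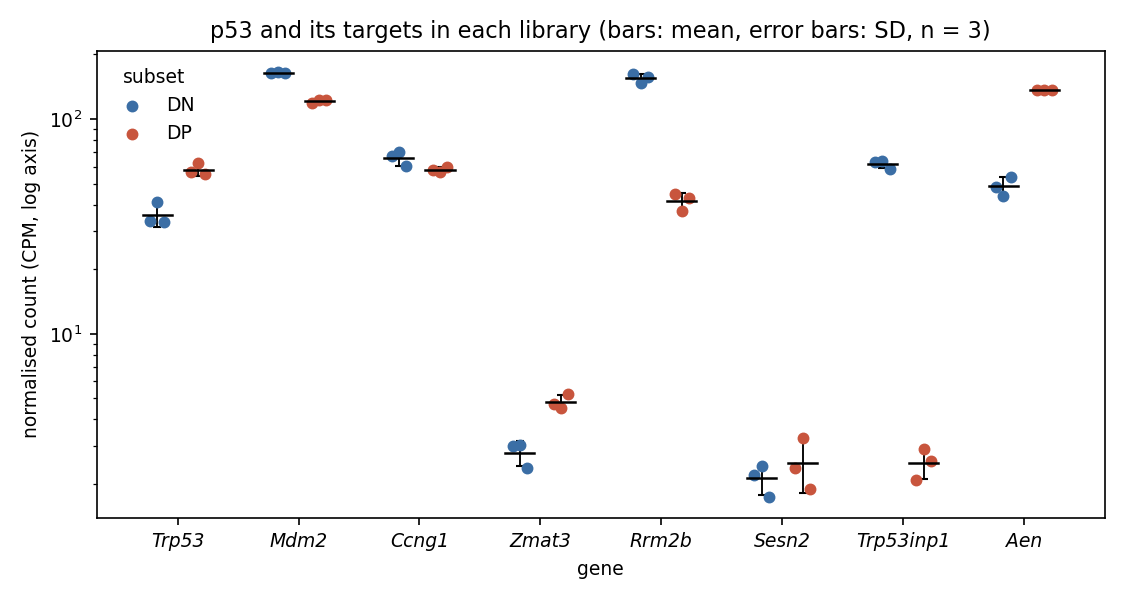
Normalised counts (CPM, log axis) of the 8 tested genes in each DN (blue) and DP (red) library, with mean bars and SD error bars over 3 libraries. Trp53inp1 drops from about the level of Ccng1 to that of Sesn2, Aen and Trp53 are higher in every DP library, and the groups of Sesn2 overlap.

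The transcription factor came first. Trp53 (ENSMUSG00000059552.13, protein-coding, mm10 chromosome 11 from 69580359 to 69591873) stood at 33.6, 40.9 and 33.05 CPM in the DN libraries and at 56.5, 62.6 and 55.5 CPM in the DP libraries. Every DP library was above every DN library, and DN replicate 2 was the highest of its group. The mean rose from 35.9 ± 4.40 to 58.2 ± 3.84 CPM (SD, n = 3), a 1.63-fold change (0.71 ± 0.07 on the log2 scale, edgeR adjusted p = 6.65e-14). Wrap53, the neighbouring gene in antisense orientation, was not called, with 7.14 ± 0.572 CPM in DN and 7.97 ± 0.833 CPM in DP (SD, n = 3, edgeR adjusted p = 0.289). Its change of 0.16 went to -0.04 with library totals alone. In the annotation used, the exons of Trp53 overlap no other gene.

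Mdm2 moved the other way. It encodes the ligase that marks p53 for destruction and is the best-known p53 target. Mdm2 (ENSMUSG00000020184.15, chromosome 10 from 117688875 to 117710758) was measured at 163, 166 and 164 CPM in DN and at 119, 123 and 123 CPM in DP. The libraries of each subset lay within a few CPM of each other and the subsets did not overlap. It fell by 0.43 ± 0.04 on the log2 scale (edgeR adjusted p = 2.08e-14), so that DN was 1.35-fold higher. Its relative Mdm4, whose product masks the activation domain of p53, fell by a like amount, from 220 ± 7.05 to 162 ± 4.94 CPM (SD, n = 3). The 95% interval of the log2 change was -0.52 to -0.36 for Mdm4 and -0.52 to -0.35 for Mdm2.

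Ccng1 encodes cyclin G1, which guides a phosphatase to MDM2. Ccng1 (ENSMUSG00000020326.7, chromosome 11 from 40748552 to 40755311) gave 67.1, 70.3 and 60.2 CPM in DN and 58.1, 56.7 and 59.6 CPM in DP. The lowest DN library and the highest DP library nearly met. The fall was the smallest among the called members, 0.18 ± 0.05 on the log2 scale (edgeR adjusted p = 0.00233), and without the filter on low counts it was 0.11 and not called (adjusted p = 0.102). Zmat3, a zinc finger protein that binds RNA, rose at a far lower level. Zmat3 (ENSMUSG00000027663.12, chromosome 3 from 32334792 to 32366014) had 38, 29 and 23 counts in DN and 79, 87 and 86 in DP, which is 2.99, 3.04 and 2.36 CPM against 4.69, 4.51 and 5.25 CPM. Its change was 0.77 ± 0.19 (edgeR adjusted p = 2.65e-04), with the subsets apart.

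Of the genes that p53 uses to supply repair and restrain growth, Rrm2b fell and Sesn2 did not pass the test. Rrm2b encodes p53R2, a small subunit of ribonucleotide reductase that makes deoxynucleotides for repair and for mitochondrial DNA. Rrm2b (ENSMUSG00000022292.16, chromosome 15 from 37923952 to 37961318) lay at 162, 148 and 157 CPM in DN and at 44.6, 37.3 and 43.0 CPM in DP. Each DN library was more than 3 times as high as each DP library. The log2 change was -1.91 ± 0.05 (edgeR adjusted p = 2.59e-37), or 3.75-fold higher in DN. An antisense gene, Gm49085, overlaps 734 bases (8.04%) of the exons of Rrm2b, and it fell as well, from 9.24 ± 1.45 to 1.34 ± 0.491 CPM (SD, n = 3, log2 change -2.79 ± 0.20). As no source used here states the strand setting of the counting, reads of this overlap cannot be assigned with certainty, although the level of Gm49085 was a small part of that of Rrm2b.

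Sesn2 encodes sestrin 2, a leucine sensor that restrains the growth kinase complex mTORC1. Sesn2 (ENSMUSG00000028893.8, chromosome 4 from 132492032 to 132510501) had 28, 23 and 17 counts in DN and 40, 63 and 31 in DP. In CPM the libraries overlapped, with 2.20, 2.41 and 1.74 in DN and 2.37, 3.26 and 1.89 in DP. The log2 change of 0.26 ± 0.25 had a 95% interval of -0.23 to 0.75 (edgeR adjusted p = 0.338), so neither a small fall nor a rise of over 1.5-fold was resolved at this depth.

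Trp53inp1 and Aen, both linked to cell death, moved in opposite directions and held the largest changes of the list on each side. Trp53inp1 encodes a stress-induced nuclear protein that supports p53 phosphorylation and autophagy. Trp53inp1 (ENSMUSG00000028211.11, chromosome 4 from 11156431 to 11174379) had 806, 609 and 572 counts in DN and only 35, 56 and 42 in the deeper DP libraries. The levels were 63.4, 63.9 and 58.7 CPM against 2.08, 2.90 and 2.57 CPM. DN was thus 24.4-fold higher (log2 change -4.61 ± 0.10, edgeR adjusted p = 9.74e-45), which places the gene 15th among all 11296 tested genes by size of fall. Aen, which encodes an apoptosis-enhancing nuclease that digests DNA, rose. Aen (ENSMUSG00000030609.18, chromosome 7 from 78895854 to 78911209) was at 48.1, 43.7 and 53.9 CPM in DN and at 137 CPM in each of the 3 DP libraries. The rise was 2.82-fold (log2 change 1.496 ± 0.052, edgeR adjusted p = 2.95e-34). Aen was the only listed gene called at 2-fold or more upward, where 12.3% of all tested genes are, and Trp53inp1 and Rrm2b were the 2 called at 2-fold or more downward, where 12.8% are.

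The last 2 members were close to silent. Phlda3, whose product competes with the kinase AKT for membrane lipids, had 2, 0 and 2 counts in DN and 4, 2 and 2 in DP (ENSMUSG00000041801.5, chromosome 1 from 135766119 to 135769136). The ratio of DP to DN from these counts was 1.22 with a 95% exact counting interval of 0.326 to 5.53, so no difference was detectable at this depth. Eda2r, a receptor of the tumour necrosis factor family for ectodysplasin, had 1 count in DN replicate 1 and none in the other 5 libraries (ENSMUSG00000034457.10, chromosome X from 97333840 to 97377216). Over a subset, a floor of 3 counts equals 0.0938 CPM in DN and 0.0571 CPM in DP. It bounds the level of Eda2r in DP, where no count was seen. In DN, where 1 count was seen, it is no such bound.

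**Figure D2:**
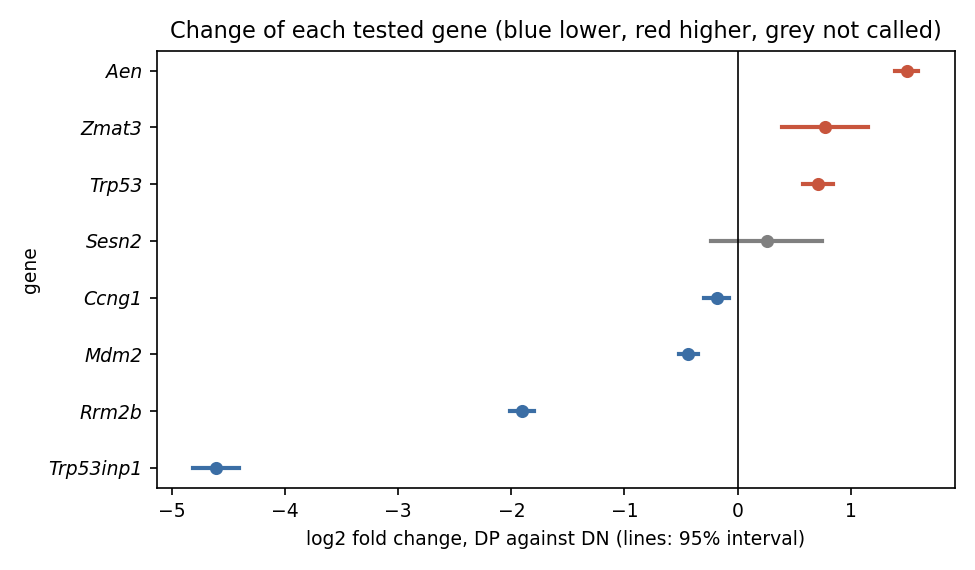
Log2 fold change of DP against DN for the 8 tested genes (points) with 95% intervals (lines). Trp53inp1 at -4.61 and Rrm2b at -1.91 stand on one side and Aen at 1.496 on the other, and the interval of Sesn2 includes 0.

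Levels of different genes can be compared once counts are divided by exon length. On the scale of CPM per kilobase of exon, Mdm2 led in DN with 32.3, followed by Ccng1 with 18.8 and Rrm2b with 17.03, whose libraries overlapped. Trp53inp1 (9.58), Trp53 (8.87) and Aen (8.37) formed the next tier, in which neighbours overlapped. Sesn2 (0.610), Zmat3 (0.245), Phlda3 (0.0775) and Eda2r (0.00445) were far below them. In DP the order differed: Mdm2 (23.9) and Aen (23.6) overlapped at the top, Ccng1 (16.6) and Trp53 (14.4) followed, and Rrm2b (4.56) came after them. Sesn2 (0.722), Zmat3 (0.421) and Trp53inp1 (0.388) stood at the low end, the last 2 with overlapping libraries. On this scale, which uses all annotated exons, Trp53inp1 thus went from the level of Trp53 itself to that of Zmat3. Without division by length its mean was 62.0 CPM in DN, beside 35.9 CPM for Trp53. In DP it was 2.51 CPM, beside 4.82 CPM for Zmat3.

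A ratio of 2 genes within a library does not depend on how libraries are scaled to each other. For each of the 7 other tested genes the ratio to Trp53, per kilobase, was set between the subsets. There were 3.86, 3.22 and 3.94 units of Mdm2 per unit of Trp53 in the DN libraries and 1.67, 1.57 and 1.76 in the DP libraries. Mdm2 thus exceeded Trp53 in all 6 libraries, by a 2.20-fold smaller ratio in DP. The ratio of Trp53inp1 to Trp53 went from 1.09 ± 0.102 to 0.0269 ± 0.00343 (SD, n = 3), that of Rrm2b from 1.94 ± 0.299 to 0.319 ± 0.0474 and that of Ccng1 from 2.13 ± 0.161 to 1.15 ± 0.0996. Aen gained on Trp53, from 0.959 ± 0.199 to 1.64 ± 0.108 (SD, n = 3). Sesn2 lost against it, from 0.0688 ± 0.00735 to 0.0498 ± 0.0105, and these 6 ratios did not overlap between the subsets. All of them also carry the rise of Trp53, which was 0.71 on the log2 scale. A gene without change would lose about that much against Trp53. The change of Sesn2 itself was not called, so its lower ratio does not show a fall of Sesn2. The share of all tested genes with such non-overlapping ratios was not computed. Zmat3 kept overlapping ratios of 0.0277 ± 0.00329 in DN and 0.0294 ± 0.00401 in DP. The exact two-sided permutation p was 0.1 for each of the 6, the smallest that 3 against 3 can give, and 0.6 for Zmat3, or 0.117 and 0.6 adjusted over the 7 ratios.

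**Figure D3:**
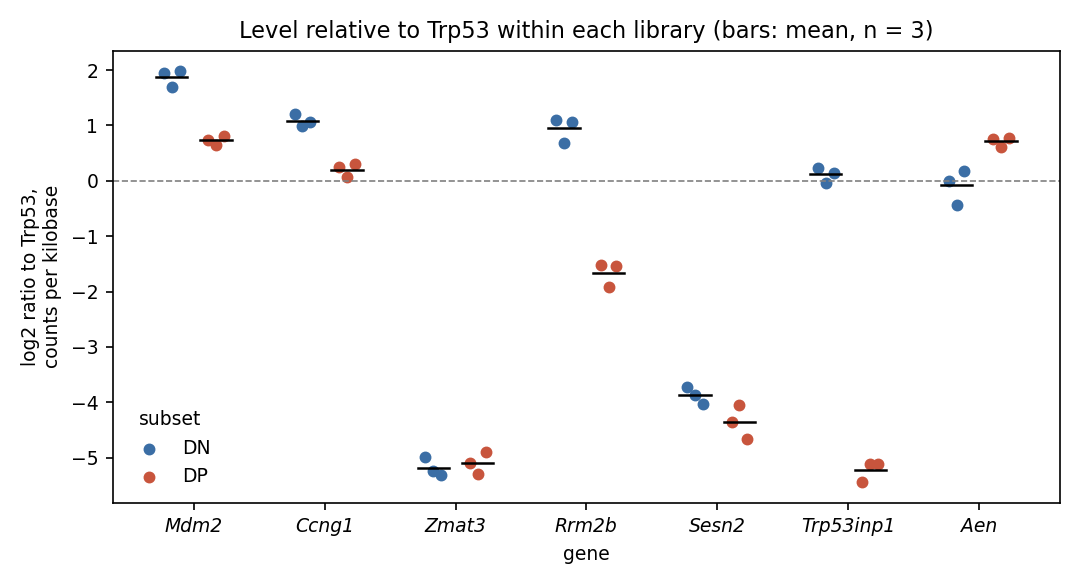
Log2 ratio of each gene to Trp53 within each library (counts per kilobase of exon), DN in blue and DP in red, with mean bars over 3 libraries and a dashed line at equal levels. Mdm2 stays above Trp53 in every library, Rrm2b passes from above it to below it, and the points of Zmat3 overlap.

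Promoter sequences were examined because p53 binds a known motif made of a pair of half-sites of 10 bases each. RefSeq windows of the GRCm38.p6 build, from 250 bases before to 50 after a transcription start, were at hand for 7 of the 10 genes (8 windows, 2 of them for Aen). Trp53inp1, Rrm2b and Zmat3 had no window in this table. A p53 half-site without mismatch was found in the windows of Trp53, Mdm2, Ccng1 and Aen (5 of 8 windows, the Aen site lying in both of its overlapping windows), against 8.36% of all 32851 windows and 17.5% of 57 windows of the wider target lists. The half-site reads as the same motif on both strands. A full site of 2 adjacent half-sites with at most 2 mismatches was found only in Ccng1, with 1 mismatch, against 0.798% of all windows and 5.26% of those of the wider target lists. The E-box CACGTG, a motif of MYC and related factors that is its own reverse complement, was found in the windows of Trp53, Eda2r and 1 of the Aen starts, against 7.15% of all windows and 8.77% of those of the wider target lists. Such matches describe letters and not binding. The genes were chosen as p53 and its known targets or partners, so the half-sites are no independent finding. Whether p53 uses any of these sites was not tested. The windows of Phlda3 and Sesn2 held none of these motifs. The stretches are shown to let the sites of Mdm2 and Ccng1, which fell, be compared with those of Trp53 and Aen, which rose. Capitals mark the motif, and all are written 5′ to 3′ on the strand of the gene.
Ccng1 upstream region with the full site, chr11:40755287-40755536, minus strand: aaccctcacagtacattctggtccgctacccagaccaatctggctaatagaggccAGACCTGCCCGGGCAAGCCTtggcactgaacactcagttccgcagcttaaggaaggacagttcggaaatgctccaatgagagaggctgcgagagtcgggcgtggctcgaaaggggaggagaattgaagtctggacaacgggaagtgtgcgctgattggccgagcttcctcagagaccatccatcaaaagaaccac
Mdm2 half-site, chr10:117710925-117710954, minus strand: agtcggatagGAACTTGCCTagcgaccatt
Trp53 half-site, chr11:69580274-69580303, plus strand: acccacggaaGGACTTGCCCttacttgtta
Aen half-site, chr7:78895927-78895956, plus strand: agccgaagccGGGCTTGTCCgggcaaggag
Trp53 E-box, chr11:69580357-69580386, plus strand: actttcccctccCACGTGctcaccctggct
Aen E-box, chr7:78895967-78895996, plus strand: cggcaagggttcCACGTGaaacctgggaaa
Relative to the transcription start at position 0, the first base of the half-site lay at -185 in Ccng1, at -186 in Mdm2 and at -75 in Trp53. In Aen it lay at 10 from the upstream start and at -121 from the downstream start. Genes with such a half-site thus include 2 that rose (Trp53 and Aen) and 2 that fell (Mdm2 and Ccng1).

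The wider set of genes taken as p53 targets was split by function. It also holds Ccng2, Sesn3 and Trp53inp2, relatives of listed genes. The standing of each gene as a p53 target was not checked here. Of 52 genes in the 4 target lists, 43 were tested, 25 were lower in DP, 12 were higher and 6 were not called. The 86.0% called is to be read against the background of 75.9%, and the median change was -0.31, beside 0.0061 over all tested genes. For the lists that follow, too, 75.9% called, 38.3% higher and 37.6% lower over all tested genes are the shares to read the counts against. All these lists were chosen with earlier results of these data known, so their counts and medians are no independent finding.

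Among 12 targets of cell cycle arrest, 9 were tested, and 6 fell, 2 rose and 1 was not called (88.9% called against 75.9% of all tested genes), with a median of -1.03. Cdkn1a, which encodes p21 and is the classic arrest target, was nearly absent, with 3, 5 and 3 counts in DN and 10, 13 and 13 in DP. It did not pass the filter, and the ratio of DP to DN from these counts was 1.99 with a 95% exact counting interval of 0.993 to 4.34. Ccng2, encoding cyclin G2, fell from 71.8 ± 0.595 to 13.02 ± 0.934 CPM (SD, n = 3, log2 change -2.46 ± 0.07). Plk2, a polo-like kinase gene, had 61, 53 and 49 counts in DN and 8, 15 and 13 in DP, so that it passed the filter through the DN libraries. It fell by 2.88 ± 0.25 from a level of 5.13 CPM. Btg2, an antiproliferative gene, fell by 1.97 ± 0.09. Plk3 (1.52 ± 0.23) and Gtse1 (0.43 ± 0.06), whose product carries p53 out of the nucleus, rose.

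Of 14 death targets, 11 were tested, of which 5 rose and 4 fell with a median of -0.053, whereas library totals alone gave 4 higher, 6 lower and a median of -0.25. The 81.8% called is near the 75.9% of all tested genes. The death receptor gene Fas stood at 121, 121 and 119 CPM in DN and at 58.7, 55.3 and 57.6 CPM in DP, with no overlap. Bbc3, which encodes the BH3-only protein PUMA, had 19, 19 and 16 counts in DN and 13, 17 and 11 in DP, and passed the filter through the DN libraries. It fell by 1.11 ± 0.32 (edgeR adjusted p = 0.00173). Pmaip1, which encodes NOXA, was not called (-0.13 ± 0.08, edgeR adjusted p = 0.153), but it was called lower with library totals alone (-0.33, adjusted p = 5.36e-04) and with a stricter filter (-0.18, adjusted p = 0.0497). Bax, the pore-forming effector, rose from 1.99 ± 0.575 to 3.16 ± 0.450 CPM (SD, n = 3, 0.69 ± 0.24), but without DN replicate 1 the change was 0.46 and not called (adjusted p = 0.102), nor was it with library totals alone (adjusted p = 0.0548). Tnfrsf10b, a receptor for TRAIL, had 4, 2 and 8 counts in DN and 37, 28 and 31 in DP, so that it passed the filter through the DP libraries. The ratio of DP to DN from these counts was 4.18, with a 95% exact counting interval of 2.37 to 7.93. Siva1 rose by 0.43 ± 0.06, and Casp1 fell by 0.37 ± 0.06.

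Of 10 repair targets, 9 were tested, and 6 fell and 2 rose (88.9% called against 75.9% of all tested genes), with a median of -0.15. Polh, the translesion polymerase that writes mutations at A:T pairs during hypermutation, fell from 111 ± 2.51 to 39.5 ± 0.247 CPM (SD, n = 3, -1.49 ± 0.05). Ddb2, a sensor of ultraviolet lesions, fell by 0.72 ± 0.09 and Fancc by 0.49 ± 0.14. Rps27l, a ribosomal protein gene that p53 induces, rose by 0.96 ± 0.08 and Ercc5 by 0.46 ± 0.10. Of 16 targets of metabolism, redox balance and autophagy, 14 were tested, and 9 fell and 3 rose (85.7% called against 75.9%), with a median of -0.35. Tigar, an enzyme that diverts sugar from glycolysis, rose from 10.5 ± 1.44 to 22.1 ± 0.955 CPM (SD, n = 3, 1.08 ± 0.10), and Fdxr, the mitochondrial ferredoxin reductase, rose by 1.01 ± 0.15. Dram1, a lysosomal regulator of autophagy, fell by 1.59 ± 0.20. Triap1 rose by 0.42 ± 0.15, but with library totals alone its change was 0.22 and not called (adjusted p = 0.165).

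Several listed genes have relatives in these lists. Ccng2 fell by 2.46 ± 0.07 beside the fall of 0.18 ± 0.05 of Ccng1. Sesn1 (-0.96 ± 0.09) and Sesn3 (-0.96 ± 0.05) fell, while Sesn2 was not called at 0.26 ± 0.25. Trp53inp2 fell by 1.33 ± 0.29 from 2.28 ± 0.556 CPM (SD, n = 3), beside the fall of 4.61 ± 0.10 of Trp53inp1. The differences between relatives were not tested themselves, and the intervals are those of each gene.

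Of 26 regulators and family members, 24 were tested, and 13 fell, 4 rose and 7 were not called, with a median of -0.15. The 70.8% called is under the background of 75.9%. Bcl6, the repressor of Trp53, was at 158, 162 and 159 CPM in DN and at 76.6, 77.7 and 75.5 CPM in DP, and the subsets were far apart. Bach2, which encodes a repressor active in B cells, was at 319 ± 1.71 and 33.3 ± 2.13 CPM (SD, n = 3). Rchy1, which encodes a further ligase of p53, fell by 1.196 ± 0.093. Hipk2, a kinase that activates p53, rose by 0.78 ± 0.07 and Trp53bp1, which encodes 53BP1, rose by 0.54 ± 0.05. The methyltransferase gene Smyd2, whose product dampens p53, was at 2.20, 2.31 and 2.05 CPM in DN and at 37.6, 37.3 and 36.1 CPM in DP. Cdkn2a, whose products include the MDM2 inhibitor ARF, was near the floor with 33 counts over the whole gene in DN and 49 in DP. It was not called (-0.14 ± 0.36, edgeR adjusted p = 0.731). Without DN replicate 1, the DN library with most of its counts, the change of Cdkn2a was 0.26 and still not called.

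Of 14 kinases and mediators of the DNA damage response, 13 were found and tested, and 6 rose and 4 fell (median change 0.054). The 76.9% called is about the 75.9% of all tested genes. Atr, the kinase of replication stress, rose from 19.3 ± 1.62 to 43.1 ± 2.75 CPM (SD, n = 3, 1.16 ± 0.08), and its partner Atrip rose by 0.66 ± 0.11. Nbn rose by 0.47 ± 0.06, and Prkdc, the kinase of end joining, fell by 0.50 ± 0.05, as did Rad9a (-0.43 ± 0.12) and Rad17 (-0.29 ± 0.07). The split of this list turned with the scaling: library totals alone, which put the median of all genes at -0.19, gave 4 higher, 7 lower and a list median of -0.14, and upper-quartile factors gave 4 and 4.

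Among 10 nucleolar and ribosomal proteins known to bind or regulate MDM2, 8 rose and 1 fell (90% called against 75.9% of all tested genes), with a median of 0.47. Npm1, which encodes nucleophosmin, was at 1734, 1743 and 1759 CPM in DN and at 7312, 6669 and 7037 CPM in DP. Gnl3, which encodes nucleostemin, rose by 2.92 ± 0.05 and Ncl, which encodes nucleolin, by 2.16 ± 0.04. Nop53 fell by 0.34 ± 0.03. Scaled by library totals alone, 6 were higher and 3 lower, and the median was 0.28.

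Of 14 cell cycle genes that p53 represses through p21 and the DREAM complex, 9 rose, 3 fell and 2 were not called (85.7% called against 75.9% of all tested genes), with a median of 0.27. Mybl2 rose from 117 ± 2.55 to 305 ± 6.85 CPM (SD, n = 3, 1.38 ± 0.04), Ccnb1 rose by 0.64 ± 0.04 and Cdk1 by 0.55 ± 0.04, while Ccnb2 fell by 0.52 ± 0.05. Cdc25c (-0.23 ± 0.08) and Top2a (-0.084 ± 0.034) fell slightly, the libraries of Top2a overlapping. Both lost their call without the filter on low counts, where their adjusted p was 0.144 and 0.827, and at an adjusted p of 0.01. Leaving out single libraries also ended the call of Top2a without DN replicate 1 (adjusted p = 0.0734), DN replicate 2 (0.0908), DP replicate 2 (0.115) and DP replicate 3 (0.159). Cdc25c was not called without DN replicate 1 (0.0547) or DP replicate 1 (0.0892). Scaled by library totals alone, 6 genes of this list were higher and 5 lower, and the median was 0.078.

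**Figure D4:**
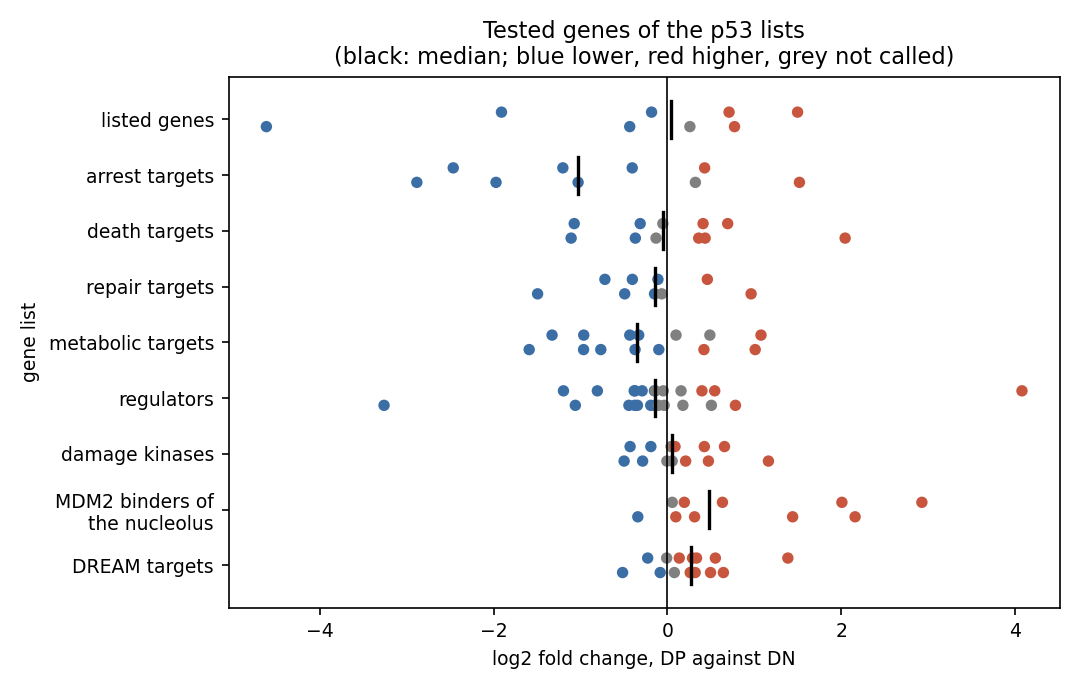
Log2 fold change of DP against DN for each tested gene of 9 lists, one point per gene, with a black bar at the list median (blue called lower, red called higher, grey not called). The arrest targets have the lowest median (-1.03) and the nucleolar binders of MDM2 the highest (0.47), while the listed p53 genes spread to both sides of 0.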

How the data were processed

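The authors deposited raw read counts per gene for each library. HTSeq 0.13.5, STAR 2.7.10a, Trim Galore 0.6.6 and mm10 are named, per the submitters' processing notes. Annotation release, strand setting and any use of molecular identifiers: not given in the sources used here. The 5 summary rows that name no gene held 9.47% to 12.95% of counts and were left out. Libraries were grouped by title. DP was compared with DN by edgeR 4.0.16 in R 4.3.3, after a check on simulated data. Settings were the quasi-likelihood F test, TMM, filterByExpr with a minimum count of 10 and robust estimation, with Benjamini-Hochberg adjustment over 11296 tested genes. The check changed far fewer genes than were called here, so it did not test scaling under a broad shift. CPM used TMM-adjusted library sizes. Positions and exon lengths came from GENCODE M21, promoters from RefSeq. Ratios were tested by exact permutation. Within a subset, libraries differed by more than sampling noise (chi-square per degree of freedom 1.96 to 3.26, against 144 to 182 between subsets), and all 6 were kept. Alternatives used other scalings, filters, thresholds, DESeq2 1.42.0, limma 3.58.1 (voom), gene sets left out, thinned DP libraries, a replicate block and left-out libraries. Genes named beyond the 10 are the 3 largest called rises and falls of each wider list, a few fixed regulators and targets, and genes that overlap a member; Sesn1, Gls2 and the marker genes were named after their values were seen. The genes and lists were chosen with earlier results of these data known.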

Additional observations from a re-analysis of the deposited data

How the results depend on the processing

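Of 159 changes of the 8 tested genes under 20 alternatives, 154 kept their direction and side of the threshold, 4 lost the call and 1 changed direction. Tested against a minimum fold of 1.5, Mdm2 (-0.43), Ccng1 (-0.18) and Zmat3 (0.77) were not called (adjusted p = 1, 1 and 0.154), and Ccng1 (-0.11) was not called with no filter. That test left 4 listed genes, 29 genes of the wider lists (of 85) and 3876 of all genes (of 8571). Sesn2, never called, went to -0.071 with thinned DP libraries. Low counts limit the precision for Sesn2, Phlda3, Eda2r and Cdkn1a. Leaving out 1 library gave log2 changes of 0.66 to 0.81 for Trp53, -0.44 to -0.41 for Mdm2, -4.73 to -4.48 for Trp53inp1, -1.95 to -1.82 for Rrm2b, 1.44 to 1.57 for Aen, -0.24 to -0.13 for Ccng1, 0.68 to 0.83 for Zmat3 and 0.015 (without DP replicate 2) to 0.43 for Sesn2. The log2 change of the ratio to Trp53 then ran from -0.010 (without DP replicate 3) to 0.19 for Zmat3, and the other 6 ratios kept their direction. With library totals alone the share of called genes that were higher went from 50.5% to 38.0%, and from 45.9% to 34.1% in the wider lists. With the replicate number as a block, 8589 genes, the same number of listed genes (7) and 86 of the wider lists were called. Same-numbered libraries correlated at 0.121, 0.030 and -0.0099 in their deviations, so the numbers are not shown to pair the samples, and not every library correlated best with its own number.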

Other observations

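A processed pseudogene, Gm3362, lies inside an intron of Rrm2b on the same strand, and its counts did not follow those of its host. Its mean went from 8.11 ± 0.469 CPM to 9.86 ± 0.392 CPM in DP (SD, n = 3, log2 change 0.28 ± 0.12, edgeR adjusted p = 0.0365), while Rrm2b fell by 1.91. The call of Gm3362 was lost with library totals alone (adjusted p = 0.554), upper-quartile factors (0.0657), a stricter filter (0.0792), DESeq2 (0.110), thinned DP libraries (0.0594), an adjusted p of 0.01 or a minimum fold of 1.5, and also without DN replicate 2 (0.0755), without DN replicate 3 (0.0879) and without DP replicate 2 (0.107).

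Gls2, a glutaminase gene among the metabolic targets, did not pass the filter, with 4 counts over all DN libraries against 34 over all DP libraries. The ratio of DP to DN was 5.18, with a 95% exact counting interval of 1.85 to 20.1, which covers counting error only. It was picked after its counts were seen.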
